A study of Mus musculus with 48 samples.

Results

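Off-target junctions between the JH segments and the first VH gene of Igh, the heavy chain locus of the mouse, are described here: joints of a JH bait to DNA of the D interval that lies outside the annotated D segments. They were taken, by position alone, from the off-target lists deposited for 14 single libraries, as all lines on chromosome 12 from 114668045 to 114812452 (mm9, 144408 bp). A junction was counted once per library when its position, its strand and the end of its bait alignment were the same. This gave 8533 distinct junctions (40479 lines) of the 39455 distinct junctions in those lists. Of the 8533, 8298 (97.2%) lay on the plus strand, the orientation of a deletional joint in this locus, and 235 on the minus strand, the orientation of an inversional joint.

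RAG, the recombinase of V(D)J recombination, binds recombination signal sequences (RSSs) and cuts at the border of their heptamer. An RSS holds a heptamer (consensus CACAGTG), a spacer and a nonamer, and the first 3 heptamer bases, CAC, matter most for cutting. From a recombination centre over the JH segments RAG also scans along chromatin as cohesin extrudes it, and it cuts cryptic sites of little more than a CAC on its way. Wapl unloads cohesin. IGCR1, a pair of CTCF-binding elements on the VH side of Ighd1-1, holds scanning back from the VH genes.

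The assay, LAM-HTGTS, amplifies linearly from a bait primer and sequences across each joint into the prey DNA, and the series asks how RAG scanning and locus contraction serve joining over long distances. WT BM (4 libraries) was C57BL/6 bone marrow taken on B220 beads and grown with IL-7 and SCF, and INV BM (4 libraries) was the same with an Igh inversion whose ends the labels do not give. The labels of both list RAG1 deficiency, although the libraries hold V(D)J joints, and the tissue could not be checked against markers in junction lists. The Wapl-degron groups (3 libraries each) were 1 v-Abl transformed pro-B line with Wapl-degron, OsTIR1 and Emu-Bcl2 alleles on a RAG1-deficient background that received RAG1/2 by retrovirus. That line was held in 3 uM STI-571, an Abl kinase inhibitor that arrests it, for 4 days. The untreated group had no other agent, and the IAA/Dox group had 150 μM IAA and 2 mg/mL Dox over the last 3 of those days, which through the OsTIR1 ligase degrades a degron-tagged protein. The labels do not say whether replicates came from separate cultures or mice, so tests measure the spread between libraries, which may be technical.

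The libraries held 175 to 583 (WT BM), 801 to 1070 (INV BM), 554 to 1358 (untreated) and 101 to 180 (IAA/Dox) distinct junctions of the interval. The whole lists differed in make-up: 12.2% to 87.0% of distinct WT BM junctions, 2.87% to 40% in INV BM, 74.8% to 77.6% in untreated and 52.5% to 92.7% in IAA/Dox cells lay on other chromosomes. Full junction lists were at hand for 13 libraries. In 9 of them the off-target list held every full-list line at the positions it listed. Set against the full lists, these 9 left out 22 windows of the interval. Of the lines left out, 99.9% lay in windows that cover a D segment or end within 5 bp of it (20 of the 21 annotated D segments). Because the windows were drawn from these 9 libraries, a recount outside them returns their lists by construction, and this was no check of the recount. The off-target lists of WT BM 2 and 3 and INV BM 1 and 4 kept part of the full-list lines at the positions they listed. The shares kept were 77.1%, 41.6%, 51.0% and 76.7%. The number of lines in the full list of WT BM 1 was 78.8%, 39.5%, 51.1% and 75.9% of theirs, in the same order. Whether these lists were cut to the depth of WT BM 1 was not tested. WT BM 4 had no joint to Ighj1 or Ighj2 (71.0% of its lines joined Ighj3 and 29.0% Ighj4), and untreated library 1 had none to Ighj2. Most pairs of replicates did not differ beyond counting error in their counts over bins of the interval, by chi-square. The exceptions were WT BM 1 and 3, 1 and 4, and 3 and 4. A pair had 5 to 17 bins, so single sites were not compared. No pair shared a read name, and all were kept as separate libraries. IAA/Dox libraries 1 and 2 shared 61 distinct junctions, 60.4% of one and 50% of the other, and INV BM libraries 2 to 4 shared 309 to 340, 37.5% to 42.1% of a library.

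The junctions stacked on few positions. Joined over gaps of up to 20 bp, they formed 289 sites. Of these, 55 sites had at least 10 junctions and held 7996 junctions (93.7%), and 133 sites had 1 junction. The 10 sites with the highest mean use over the 4 groups held 6000 junctions (70.3%). Each of these 10 lies between genes on the plus strand. A site is called here by its nearest D segment and the distance of its most used position in bp, positive toward VH.

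The mm9 sequence of those 10 sites is given next because most results below turn on them. Each is read on the minus strand, through the 10 bases before the CAC and on into the DNA that the joint left out. Those 10 bases are kept in the joint, except that at Ighd2-3 +1454, Ighd1-1 +1007 and Ighd1-1 +3625 the last of them were left out. Capitals mark the heptamer position and the nonamer position after a 12 bp spacer:
Ighd2-5 +332 (chr12:114704558-114704595): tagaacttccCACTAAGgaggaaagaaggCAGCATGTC
Ighd5-2 -237 (chr12:114707372-114707409): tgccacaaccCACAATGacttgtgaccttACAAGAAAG
Ighd2-3 +1454 (chr12:114715052-114715089): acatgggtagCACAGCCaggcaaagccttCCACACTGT
Ighd6-1 -629 (chr12:114717697-114717734): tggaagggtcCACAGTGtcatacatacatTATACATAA
Ighd6-1 +892 (chr12:114719246-114719283): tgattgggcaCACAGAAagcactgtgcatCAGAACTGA
Ighd1-1 +1007 (chr12:114721381-114721418): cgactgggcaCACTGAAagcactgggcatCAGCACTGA
Ighd1-1 +1964 (chr12:114722339-114722376): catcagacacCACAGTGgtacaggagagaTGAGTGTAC
Ighd1-1 +3141 (chr12:114723516-114723553): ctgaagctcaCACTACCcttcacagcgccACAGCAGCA
Ighd1-1 +3491 (chr12:114723866-114723903): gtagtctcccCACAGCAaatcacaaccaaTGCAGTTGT
Ighd1-1 +3625 (chr12:114723996-114724033): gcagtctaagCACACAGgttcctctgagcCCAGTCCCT

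The same window at 3 annotated D segments shows what an RSS of this side looks like, with the consensus nonamer in Ighd4-1 and Ighd2-5:
Ighd4-1 RSS (chr12:114668711-114668748): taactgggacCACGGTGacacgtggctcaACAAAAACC
Ighd2-5 RSS (chr12:114704210-114704247): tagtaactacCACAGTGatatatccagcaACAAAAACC
Ighd6-1 RSS (chr12:114718326-114718363): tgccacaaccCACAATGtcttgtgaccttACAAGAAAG

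All 10 sites had a CAC at or within 5 bp of the junction, and 7 had it at the first left-out base. Ighd6-1 -629 and Ighd1-1 +1964 carried the whole consensus heptamer, 7 of 7 bases, while Ighd1-1 +3141 matched 3 of 7. The nonamer position matched the consensus at 1 to 6 of 9 bases, with 6 at Ighd5-2 -237. Over the 55 sites with at least 10 junctions the median was 5 of 7 heptamer bases (range 3 to 7) and 2 of 9 nonamer bases (0 to 6). At the 21 annotated D segments the medians were 6 of 7 (from 5) and 6 of 9 (2 to 9).

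A CAC stood beside the junction far more often than in the interval as a whole. On the plus strand it started at the first left-out base in 23.4% of the 8298 junctions, against 1.78% of the interval's positions outside the left-out windows. It started within 5 bp in 78.4% of junctions, against 9.44% of positions. GTG, the same letters read on the other strand, started at the first left-out base in 0.349% of junctions, so the match was to 1 orientation of the motif. On the kept side, the place of an RSS that would itself be retained, CAC was next to 0.398% of plus-strand junctions against 1.45% of positions. These junctions come from a few recurrent positions and are not independent of each other, so the shares are given with no test.

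**Figure D1:**
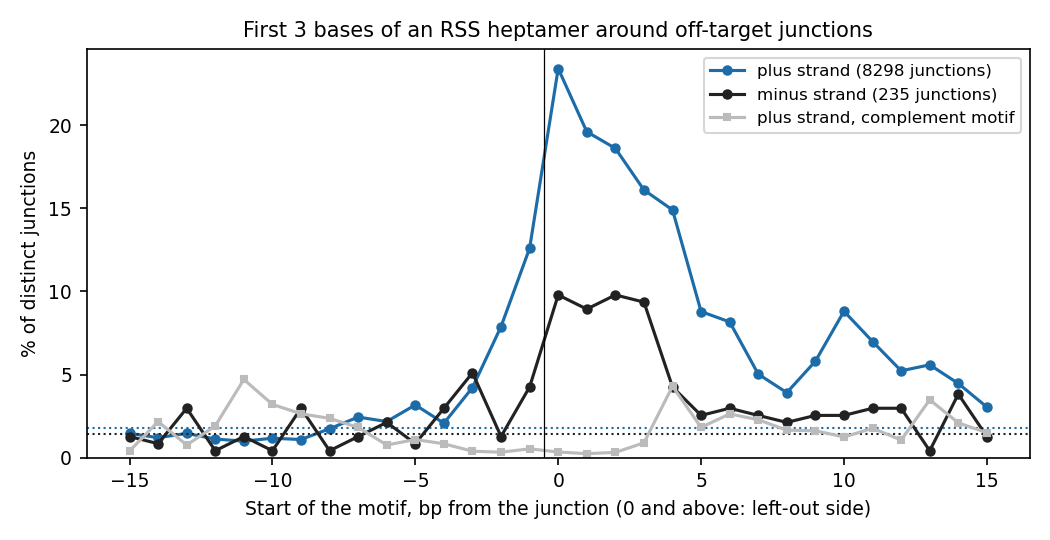
Share of distinct off-target junctions (percent, vertical axis) with the motif CAC starting at each distance in bp from the junction (horizontal axis, 0 and above on the left-out side), for plus-strand (blue) and minus-strand (black) junctions, with GTG on the plus strand in grey. Dotted lines give the share of all positions, 1.78% and 1.45%, and the plus-strand curve peaks at 23.4% at distance 0.

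A second, lower rise of the plus-strand curve at 10 bp reached 8.81%.

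Most CAC triplets of the interval were not used. Of the 2556 that a plus-strand joint could leave out, 66 had at least 10 junctions within 5 bp, 178 had 1 to 9, and 2312 had none. The used ones resembled the heptamer more: at least 5 of 7 bases matched in 63.6%, 43.3% and 30.2% of these 3 classes. The nonamer did not follow the same order, since at least 5 of 9 bases matched in 16.7%, 22.5% and 12.9%. These counts describe sequence letters beside junctions and do not show where RAG cut.

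One of the 10 sites is a copy of annotated D segments. The 38-base window of Ighd5-2 -237 matched those of Ighd6-1 and Ighd6-2 at 37 bases and those of Ighd5-7 and Ighd5-8 at 36. Its next 100 bases on the kept side were identical to Ighd5-7 at 100 and to Ighd5-8, Ighd6-1 and Ighd6-2 at 98, 97 and 96. Ighd5-7 and Ighd5-8 each lie 237 bp on the JH side of another Ighd5 segment, the place that this site takes beside Ighd5-2, where the annotation has no segment. In the full lists of 13 libraries the site had 1798 lines, against 428 at Ighd5-8, 996 at Ighd5-7, 1623 at Ighd6-2 and 17321 at Ighd6-1. The label off-target therefore rests, for this site, on the annotation that the left-out windows follow. Its sequence and its line count lie within those of annotated segments. The reads cover the near-identical kept side, so the site and these segments can exchange lines in alignment. Whether the mapping filter of the authors split them was not tested, and this limit holds for the shares of this site below.

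Another site is 1 of 6 related copies, 5 of them near-identical, that were used very unequally. Ighd2-5 +332 lies in a stretch that is repeated beside 6 Ighd2 segments, each with a CAC 326 to 331 bp from the segment:
Ighd2-8 copy (chr12:114689382-114689419): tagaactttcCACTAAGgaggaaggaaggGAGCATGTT
Ighd2-7 copy (chr12:114695246-114695283): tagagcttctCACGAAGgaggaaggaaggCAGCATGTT
Ighd2-6 copy (chr12:114699900-114699937): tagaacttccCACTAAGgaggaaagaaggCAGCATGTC
Ighd2-5 copy (chr12:114704558-114704595): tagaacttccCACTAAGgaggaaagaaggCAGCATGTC
Ighd2-4 copy (chr12:114709225-114709262): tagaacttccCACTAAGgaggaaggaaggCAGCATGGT
Ighd2-3 copy (chr12:114713931-114713968): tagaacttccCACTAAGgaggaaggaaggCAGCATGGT
The Ighd2-5 copy had 1037 junctions, and the Ighd2-6 copy, with the same 28 left-out bases, had 27. The copies beside Ighd2-4, Ighd2-3, Ighd2-8 and Ighd2-7, which differ from it at 3 of those 28 bases, had 72, 45, 21 and 8. On the kept side, which the sequence reads cover, the Ighd2-6, Ighd2-4, Ighd2-3 and Ighd2-8 copies were identical to the Ighd2-5 copy at 194, 196, 195 and 193 of 200 bases, and the Ighd2-7 copy at 95. The 5 near-identical copies can exchange reads in alignment, and whether the mapping filter of the authors split them was not tested.

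**Figure D2:**
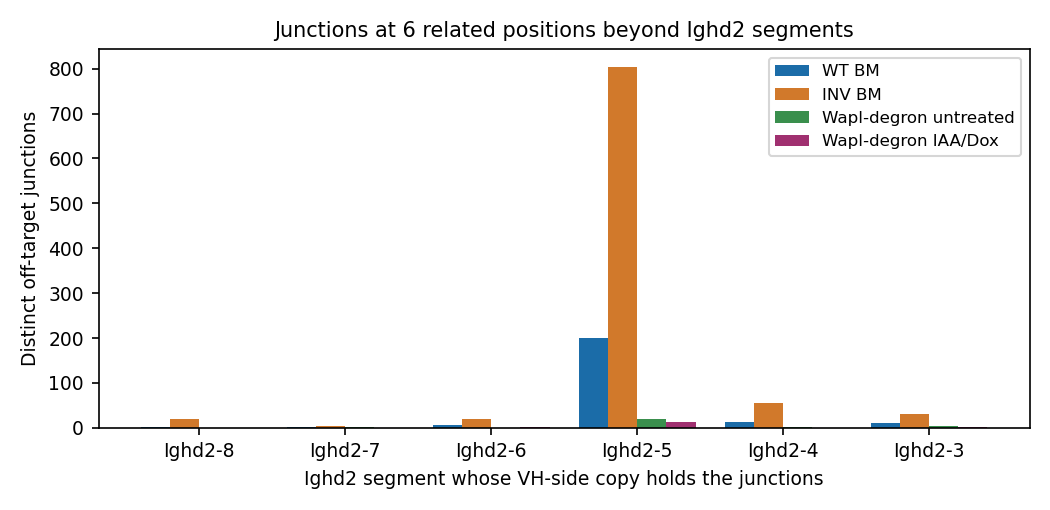
Distinct off-target junctions (vertical axis) at the 6 copies of the Ighd2-5 +332 site, ordered from JH to VH, with 1 bar for each of the 4 groups summed over its libraries. The Ighd2-5 copy holds 803 INV BM and 201 WT BM junctions, and no other bar exceeds 56.

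A pair of sites shared sequence without being part of such a repeat series: the windows of Ighd1-1 +1007 and Ighd6-1 +892 were identical at 33 of 38 bases, and no other pair among the 10 at more than 18.

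The 235 minus-strand junctions were fewer and less tied to CAC. CAC started at their first left-out base in 9.79% (1.45% of positions) and within 5 bp in 39.1% (7.89% of positions). On their kept side CAC was adjacent in 5.96%, 14 junctions at 5 positions, against 1.78% of positions. Among the minus-strand sites, some lay beside plus-strand ones. The minus-strand site at position 114704585 (13 junctions) lies 1 bp from Ighd2-5 +332, and that at 114723543 (9 junctions) 1 bp from Ighd1-1 +3141, and the kept side at the most used position of each starts with CAC. The minus-strand site at 114722357 (21 junctions, 19 of them untreated) lies 10 bp from Ighd1-1 +1964. The minus-strand site with most junctions was Ighd1-1 +634 (34 junctions, 24 untreated). Next came Ighd4-1 +54 (28 junctions, 19 untreated), 5 bp from a plus-strand site at 114668798. Sites at the same distance, 78 bp, from Ighd2-8, Ighd2-4 and Ighd2-3 had 7, 8 and 8.

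Off-target joints and D-segment joints of a library differed in the JH segment they used. By lines of the full lists, the Ighj1 share was lower in off-target joints than at D segments in 12 of 13 libraries. The mean Ighj1 share was 13.1% ± 6.62 against 24.6% ± 2.59 in WT BM (SD, n = 3), 11% ± 2.94 against 19.8% ± 1.97 in INV BM (n = 4), 20.1% ± 11.5 against 38% ± 18.3 in untreated and 22.1% ± 6.95 against 25.9% ± 6.05 in IAA/Dox cells (n = 3 each). Ighj3 was higher in off-target joints in 13 of 13 libraries and Ighj4 in 12 of 13. Ighj2 was higher in 9 and lower in 3, and those 3 were the IAA/Dox libraries, with 60.2%, 39.4% and 49.0% off-target against 65.1%, 48.3% and 60.8% at D segments. Ighj1 is the JH segment nearest the D interval.

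Along the interval the sites fell almost wholly on the JH side of Adam6b, a gene between Ighd1-1 and the last D segments. The 7.35 kb from Ighd1-1 to Adam6b held 41.7% ± 4.08 of the WT BM junctions (SD, n = 4), 30% ± 1.39 in INV BM (n = 4), 80.2% ± 1.36 in untreated (n = 3) and 45.2% ± 0.686 in IAA/Dox cells (n = 3). The 34.0 kb from Ighd3-2 to Ighd1-1, which holds most D segments, had 52.6% ± 4.65, 59.8% ± 1.72, 14.6% ± 1.35 and 31.2% ± 0.778 in the same order. The 46.2 kb from the last D segment to the first VH gene had 26 junctions in all: 2 in WT BM, 21 in INV BM, 3 in untreated and 0 in IAA/Dox libraries. The mean shares were 0.0901%, 0.580%, 0.115% and 0 in this order, from libraries of unequal depth. A left-out window with no D segment, 114811129 to 114811163, also lies in this stretch. It held 2723 lines in the full lists that show the windows, so these counts cover only what the off-target lists kept.

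**Figure D3:**
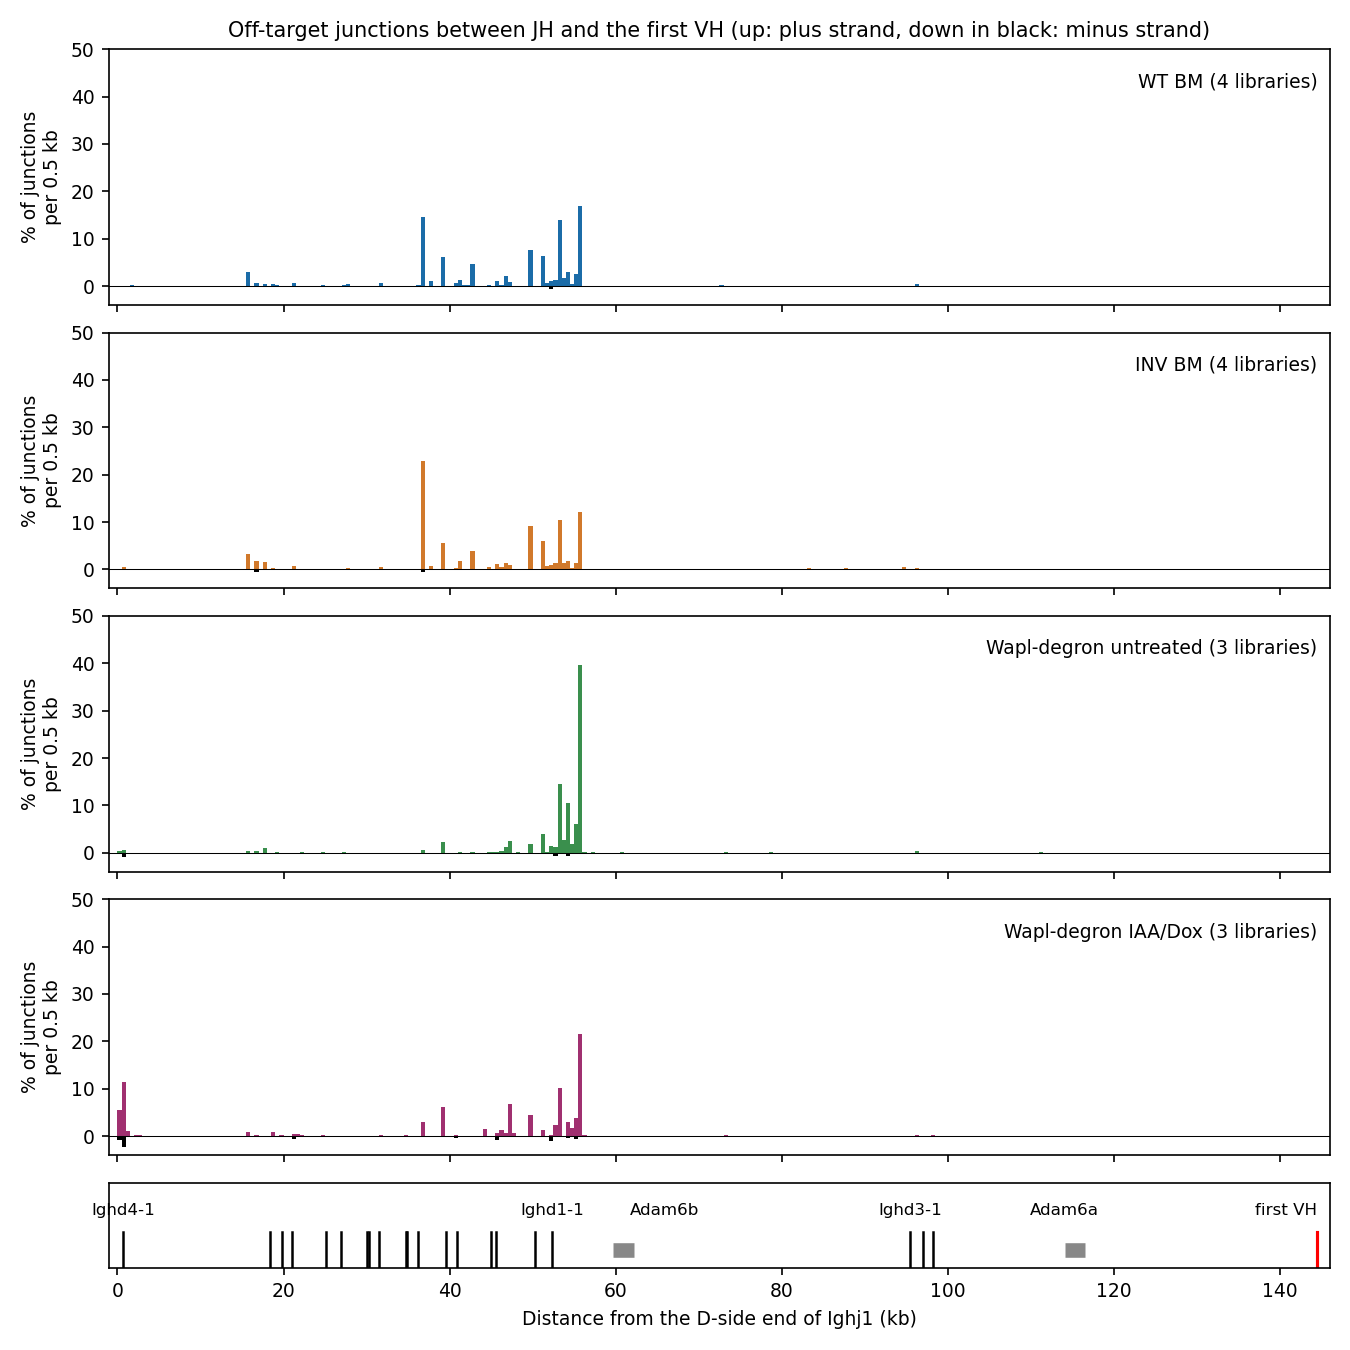
Share of each group's off-target junctions (percent of the interval, mean of its libraries, vertical axis) per 0.5 kb against distance from Ighj1 in kb (horizontal axis), with plus-strand junctions upward and minus-strand junctions downward in black, and a lowest panel with D segments (black), Adam6b and Adam6a (grey) and the first VH gene (red). Most bars lie on the JH side of Adam6b, with low ones beyond it (49 INV BM junctions from Adam6b to Ighd3-1). The tallest bar, in untreated cells, lies next to 56 kb and holds Ighd1-1 +3625 together with other named sites close to it on the JH side.

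INV BM was compared with WT BM to ask whether an inverted Igh region changes off-target use between JH and VH. Fewer of the INV BM junctions lay beyond Ighd1-1: 34.2%, 31.5%, 33.2% and 30.4% in the 4 INV BM libraries, against 41.2%, 37.4%, 45.7% and 47.0% in the 4 WT BM libraries. Every INV BM library was below every WT BM library. The means, 32.3% ± 1.71 and 42.8% ± 4.4 (SD, n = 4 each), differed by -10.5 percentage points (two-sided exact permutation test, p = 0.0286, the smallest that 4 against 4 allows, and 0.167 after Benjamini-Hochberg adjustment over the 10 such tests). So the difference did not pass the adjusted threshold. Within the sequencing runs that hold both groups it was -9.85 and -9.90 points. It was -4.06 points with each position counted once (exact permutation p = 0.114, n = 4 each) and -8.50 with joints to Ighj3 and Ighj4 only (exact permutation p = 0.143, n = 4 each).

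The site that gained most share in INV BM was Ighd2-5 +332. It took 12.1%, 16.5%, 16.6% and 13.4% of the junctions of the WT BM libraries and 22.9%, 22.7%, 23.3% and 21.9% of the INV BM libraries. The INV BM libraries lay close together and all above WT BM. Ighd1-1 +1007 took 11.9%, 12.1%, 12% and 18.2% in WT BM and 8.60%, 11.4%, 9.86% and 10.6% in INV BM, with INV BM below every WT BM library. Ighd1-1 +3141 took 12.5%, 8.79%, 17.7% and 11.7% in WT BM and 9.25%, 8.80%, 8.99% and 8% in INV BM, and here the ranges overlapped.

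Tested over all off-target sites of the genome with limma (voom), with each list's distinct junctions as library size, 0 of the 46 sites of the interval passed an adjusted p of 0.05, and 5 had an unadjusted p under 0.05. Over all 234 sites tested 10.7% passed (4.27% higher, 6.41% lower). Both groups are split over the same runs, and with run as a block limma called 7 of the 46 sites, all higher in INV BM, beside 77 of all 234 sites. Only 3 of the 7 had at least 10 junctions in both groups. Ighd2-5 +332 was among these, at 1.58 (limma adjusted p 0.0350). Without the block the median log2 fold change was 0.48 in the interval and -0.31 over all sites. With the junctions of the interval as library size, which asks how sites share the interval, 1 site was higher and 2 were lower in INV BM, beside 11.1% called over all sites. Ighd2-5 +332 was higher by 0.79 on the log2 scale (SE 0.07, limma adjusted p 1.7e-04). Ighd1-1 +1007 was lower, at -0.59 (SE 0.16, limma adjusted p 0.0407), and so was Ighd1-1 +3141, at -0.45 (SE 0.10, limma adjusted p 0.0140). Over the whole lists without the run block none of these 3 sites was called and the direction of the second and the third turned, while Ighd2-5 +332 was called there with the run block, as above, and with every line counted (1.2, limma adjusted p 0.0352). It was also called with the full lists as library size (2.98, limma adjusted p 0.00999), beside 11 of all 222 sites. In that setting, which leaves out WT BM 4, 42 of 43 sites of the interval were higher in INV BM, with a median of 2.16. The value of 2.98 thus includes a shift over the whole interval. Of the full-list lines, 64.8% and 87.4% lay in the JH region in WT BM 2 and 3. In WT BM 1 it was 5.06%, and in INV BM 2.60% to 9.55%. The part of this in the shift was not tested. That setting also sets part-kept off-target lists (WT BM 2 and 3, INV BM 1 and 4) against full lists. Over the whole lists Ighd2-5 +332 was at 1.34 (limma adjusted p 0.353), and at 0.68 without WT BM 2 (limma adjusted p 0.350).

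How often off-target sites were used could not be ordered between INV BM and WT BM, because the order turned with the unit. Recounted in the full lists, off-target joints made up 2.01, 2.97 and 2.79 of every 100 lines of the interval in WT BM libraries 1 to 3 and 1.89, 1.17, 1.27 and 1.21 in the INV BM libraries. By lines every INV BM library was lower (1.38 ± 0.337, n = 4, against 2.59 ± 0.511, n = 3; exact permutation p = 0.0571, the smallest 4 against 3 allows). By distinct junctions every INV BM library was higher: 8.39 ± 1.46 against 5.98 ± 0.662 per 100 distinct junctions of the interval (exact permutation p = 0.0571, n = 4 and 3). Within run 6, INV BM 1 and WT BM 1 had 1.89 and 2.01 lines per 100, and within run 3 the means were 1.22 and 2.88. Lines per distinct off-target junction averaged 5.77 in INV BM and 9.80 in WT BM, and at D segments 37.7 and 23.1, and the part of this in either order was not tested.

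IAA/Dox was compared with no treatment in the Wapl-degron line to ask what loss of Wapl does to off-target use. The share of off-target junctions beyond Ighd1-1 was smaller after IAA/Dox. That stretch held 82.5%, 80.0% and 81.1% in the untreated libraries and 45.5%, 45.9% and 46.7% in the IAA/Dox libraries. The groups were far apart and each was narrow. The means, 81.2% ± 1.23 and 46.0% ± 0.573 (SD, n = 3 each), differed by -35.2 points (exact permutation p = 0.100, adjusted 0.167; 3 against 3 libraries cannot give a smaller unadjusted p). Within run 4, which holds all untreated libraries and IAA/Dox 2, the difference was -35.3.

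The share on the JH side rose as that beyond Ighd1-1 fell. From JH to Ighd3-2 the untreated libraries had 4.33%, 4.12% and 4.05% and the IAA/Dox libraries 22.8%, 23.8% and 21.7%. The first 0.705 kb, from JH through Ighd4-1, the D segment nearest JH, had 0.512% ± 0.351 and 6.65% ± 2.10 (n = 3 each). Much of the rest lay close past Ighd4-1, at Ighd4-1 +49 with 15 untreated and 29 IAA/Dox junctions, a site with no CAC found within 20 bp on the left-out side. Its most used position, 114668798, lies just past the left-out window of Ighd4-1, which ends at 114668789. Whether its junctions are the edge of ordinary Ighd4-1 joints was not tested.

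Single sites show the same shift. Ighd1-1 +3625, the most used site of untreated cells, took 20.8%, 21.1% and 19.4% of their junctions and 8.91%, 11.5% and 10.6% in IAA/Dox cells. Ighd1-1 +1964 took 11.2%, 9.06% and 9.84% in untreated and 2.97%, 3.28% and 2.78% in IAA/Dox libraries. Ighd1-1 +3491 took 9.03%, 8.98% and 9.26% in untreated and 3.96%, 5.74% and 3.89% in IAA/Dox libraries. At all 3 the IAA/Dox libraries were below every untreated library.

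Ighd1-1 +1007 and Ighd1-1 +3141 changed less in share. Ighd1-1 +1007 took 14.1%, 14.3% and 13.5% in untreated and 8.91%, 8.20% and 12.8% in IAA/Dox libraries. Ighd1-1 +3141 took 13.9%, 13.8% and 13.8% in untreated and 11.9%, 9.84% and 7.78% in IAA/Dox libraries. Both groups of 3 were apart at each site, but the IAA/Dox libraries rest on 9 to 23 junctions a site.

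The next 3 sites lie on the JH side of these and had a larger share of the interval in IAA/Dox libraries. None of the 3 was called by the site test in either scaling given below. Ighd2-3 +1454 took 1.62%, 3.02% and 2.98% in untreated and 7.92%, 8.20% and 4.44% in IAA/Dox libraries. Ighd6-1 -629 took 0.903%, 1.33% and 1.41% in untreated and 4.95%, 3.28% and 3.89% in IAA/Dox libraries. Ighd5-2 -237, the copy of annotated D segments, took 1.81%, 1.69% and 3.14% in untreated and 6.93%, 6.56% and 5.00% in IAA/Dox libraries. The groups did not overlap at any of the 3, and the IAA/Dox values rest on 4 to 10 junctions a library. In limma the 3 differences, in the order given, were 1.46, 1.83 and 1.57 on the log2 scale with the interval as library size (adjusted p 0.313, 0.216 and 0.299). They were -0.49, -0.44 and -0.42 with each list's distinct junctions as library size (limma adjusted p 0.894, 0.908 and 0.908). Ighd6-1 +892 went the other way, with 4.33%, 3.61% and 2.65% in untreated cells, 0 of 101 junctions in IAA/Dox 1, which allows up to 2.97%, and 0.820% and 2.78% in the other two, so the ranges overlapped. In the single-Igh line, described below, Ighd2-3 +1454 had 48 of 601, 102 of 1276 and 79 of 1039 distinct junctions untreated. After IAA/Dox it had 6 of 63, 17 of 156 and 4 of 85, so its shares overlapped. Ighd6-1 -629 overlapped there too, with 20, 38 and 29 untreated and 8, 4 and 8 after IAA/Dox. Ighd5-2 -237 did not, with 13, 21 and 23 untreated and 3, 9 and 3 after IAA/Dox. Against all full-list lines of the interval, Ighd2-3 +1454 was lower in every single-Igh IAA/Dox library than in every untreated one. By that measure Ighd6-1 -629 and Ighd5-2 -237 overlapped in the single-Igh line. In the Wapl-degron line Ighd6-1 -629 was higher after IAA/Dox without overlap, and Ighd2-3 +1454 and Ighd5-2 -237 had higher means with overlap.

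**Figure D4:**
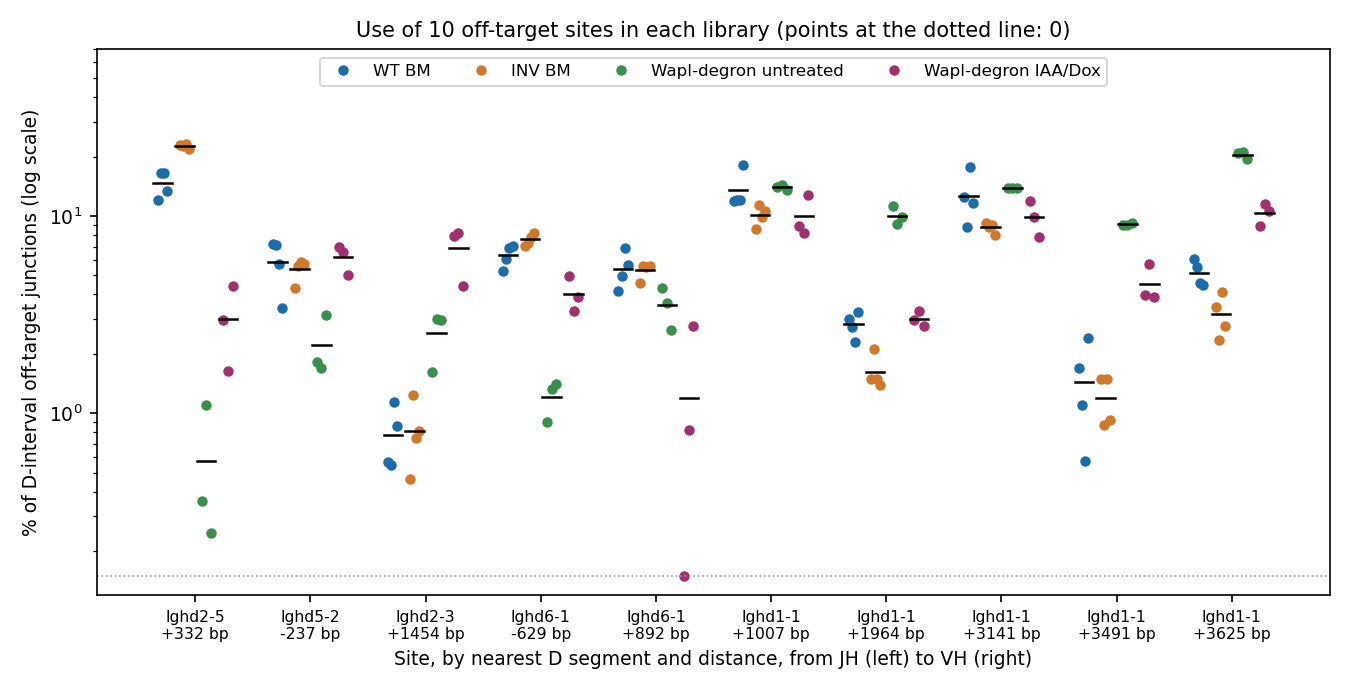
Share of each library's off-target junctions (percent of the interval, logarithmic vertical axis) at the 10 most used sites, ordered from JH to VH, with 1 point per library, a bar at each group mean and a point on the dotted line for 0. Untreated cells (green) sit lowest at Ighd2-5 +332, with 0.571% on average, and highest at Ighd1-1 +3625, with 20.4%.

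The calls of the site test depended on what the counts were scaled to. With each list's distinct junctions as library size, limma called 13 of the 34 sites of the interval lower and 0 higher after IAA/Dox, beside 5.69% called over all 422 sites tested (4.5% lower, 1.18% higher). The median log2 fold change was -1.61 in the interval and 0.12 over all sites. A site entered the test with 10 junctions over both groups together, and 8 of the 13 had fewer than 10 in IAA/Dox cells and so entered through the untreated group, where they are high. Their calls are a description, and so is the count of 13. Among them were Ighd1-1 +2820, with 61 untreated and 2 IAA/Dox junctions, Ighd6-1 +892, with 105 and 6, and 3 sites with 0 IAA/Dox junctions. The other 5, of 10 sites with at least 10 junctions in both groups, were Ighd1-1 +1007, +1964, +3141, +3491 and +3625. Ighd1-1 +1964 fell, with a log2 difference of -3.78 (SE 0.60, limma adjusted p 2.4e-04). Ighd1-1 +3625 fell as well, at -2.56 (SE 0.58, limma adjusted p 0.00664). With the interval as library size these differences were -1.56 (limma adjusted p 0.231) and -0.95 (limma adjusted p 0.44). With run as a block 6 of 30 sites were called, all lower, beside 13 of all 365 sites, but only IAA/Dox 2 shares a run with untreated libraries, so that fit sets 1 library against 3. The number of sites called was 7 without IAA/Dox 2 (11 of all 365 sites), 4 without IAA/Dox 3 (9 of all 374), 5 without untreated 1 (6 of all 397) and 5 without untreated 2 (6 of all 359). With the full lists or with the interval and the VH region as library size, 0 of the 34 sites passed in limma, beside 2 of all 422 in each setting. Of the 34, 5 and 9 had an unadjusted p under 0.05 in limma. With the interval as library size, 0 were lower and 2 were higher, beside 1.42% called over all sites: Ighd4-1 -500, with 5 untreated and 10 IAA/Dox junctions, and Ighd4-1 +126, with 5 and 9. Neither had 10 junctions in both groups, so these counts too are a description. The lists of IAA/Dox libraries 2 and 3 held 92.7% and 89.2% of their distinct junctions on other chromosomes, the untreated lists 74.8% to 77.6%, and the part of this in the calls over whole lists was not tested.

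Off-target joints also made up less of the joints in the interval. Recounted in the full lists, they were 0.418, 0.416 and 0.398 of every 100 lines in untreated and 0.191, 0.186 and 0.256 in IAA/Dox libraries. The ranges did not overlap (0.411 ± 0.0105 and 0.211 ± 0.0393, n = 3 each, exact permutation p = 0.100, the smallest possible). Per 100 distinct junctions of the interval the means were 13.2 ± 1.43 and 3.42 ± 0.601.

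Minus-strand junctions took 3.43%, 3.39% and 3.47% in untreated and 9.90%, 8.20% and 5.00% in IAA/Dox libraries, with every IAA/Dox library higher (exact permutation p = 0.100, n = 3 each, adjusted 0.167). The difference of 4.27 points was 0.579 with each position counted once (exact permutation p = 0.700, n = 3 each) and 1.94 with joints to Ighj3 and Ighj4 only (exact permutation p = 0.300, n = 3 each). The IAA/Dox values rest on 9 or 10 minus-strand junctions a library. Summed over libraries, 6 IAA/Dox and 19 untreated ones lay at Ighd4-1 +54, and 3 and 3 at Ighd4-1 +137. Both sites lie on the VH side of the left-out Ighd4-1 window. Whether ordinary Ighd4-1 joints account for part of them was not tested. CAC at the first left-out base was found at 28.2%, 23.7% and 23.5% in untreated and 20.8%, 23.8% and 23.3% in IAA/Dox libraries, which overlapped (exact permutation p = 0.300, n = 3 each, adjusted 0.429). CAC within 5 bp was found in 81.4% ± 1.32 and 62.0% ± 2.59 of junctions (n = 3 each). In the single-Igh line, described next, the difference was smaller: 83.2%, 82.4% and 83.1% untreated and 79.4%, 72.4% and 78.8% after IAA/Dox.

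Further full lists came from related lines and were recounted by the same positions. The Primary line lacks the Wapl-degron allele, the single-Igh line is the Wapl-degron line labelled Single Igh, and the single-Igh INV line is labelled INV in its title alone, with 3 libraries per group. All carry OsTIR1 and Emu-Bcl2 on a RAG1-deficient background and were held in 3 uM STI-571 for 4 days. The single-Igh IAA/Dox and INV libraries also had 150 μM IAA and 2 mg/mL Dox for the last 3 days. In the single-Igh line the share beyond Ighd1-1 was 70.4% untreated and 46.2% after IAA/Dox, and the share from JH to Ighd3-2 was 3.78% and 14.8%. Its untreated libraries had 0.689, 0.562 and 0.527 off-target lines per 100 and its IAA/Dox libraries 0.220, 0.171 and 0.221, without overlap. The untreated Primary line, which has no degron, had 81.9% beyond Ighd1-1 and 0.461 ± 0.0233 off-target lines per 100, values close to those of the untreated Wapl-degron line. The single-Igh INV line after IAA/Dox had 53.2% beyond Ighd1-1 and 0.341 ± 0.130 lines per 100.

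With labels exchanged within each of the Wapl-degron and single-Igh lines (12 libraries, 400 arrangements), an exact permutation test that was added after the values were seen can fall below 0.05. Off-target lines per 100 fell by 0.294 on average of the lines (exact permutation p = 0.00500, the smallest possible, adjusted 0.00625 over 5 measures). The share beyond Ighd1-1 fell by 29.6 points, with -35.2 in the Wapl-degron and -24.1 in the single-Igh line (exact permutation, the same p). The minus-strand share of distinct junctions differed by 3.44 points (exact permutation, the same p). In the single-Igh line it was 3.17%, 8.97% and 3.53% after IAA/Dox and 2.50%, 2.66% and 2.69% untreated, and the difference of 2.61 points was 0.733 without IAA/Dox 2. By lines it did not separate the single-Igh libraries, with 1.63%, 10.6% and 1.42% after IAA/Dox and 2.28%, 2.81% and 2.89% untreated, so that 2 of the 3 IAA/Dox libraries were below every untreated one. The CAC share fell by 2.60 points (exact permutation p = 0.0200). In the single-Igh line without IAA/Dox 2 the mean CAC shares were 23.6% and 24.9%. This test includes the libraries in which the shift was seen first, so it is not independent of it.

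**Figure D5:**
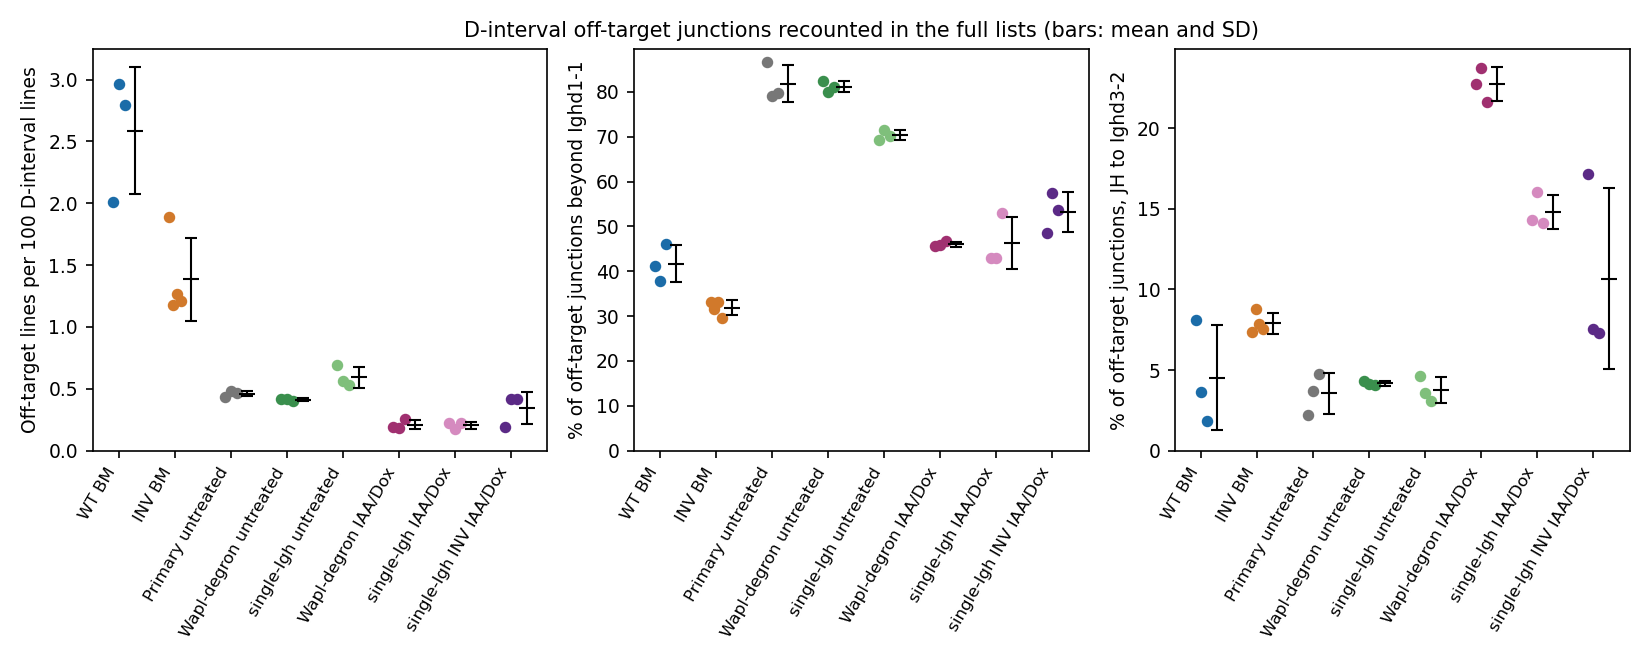
Off-target junctions recounted in the full lists of 8 groups, with 1 point per library and bars for the mean and SD: off-target lines per 100 lines of the interval (left), percent of distinct junctions beyond Ighd1-1 (middle) and percent from JH to Ighd3-2 (right). Both untreated Wapl-degron groups lie above both IAA/Dox groups of the same lines in the first 2 panels and below them in the third.

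Untreated Wapl-degron cells and WT BM, 2 kinds of pro-B cells that also differ in culture and in how RAG was supplied, differed both inside the D cluster and beyond Ighd1-1, in a comparison that was added. Ighd2-5 +332, the most used WT BM site, took 12.1% to 16.6% in WT BM and 0.361%, 1.10% and 0.248% in untreated libraries. Ighd1-1 +3625 took 4.46% to 6.05% in WT BM and 19.4% to 21.1% in untreated libraries. Neither pair of ranges overlapped. Over whole lists limma called 5 of 37 sites lower in untreated cells and 0 higher, beside 6.53% called over all 383 sites (5.22% lower, 1.31% higher), with a median log2 fold change of -0.29 in the interval and 0.44 over all sites. Ighd2-5 +332 was lower, with a log2 difference of -5.16 (SE 0.92, limma adjusted p 0.00115). The other 4 had fewer than 10 untreated junctions and entered the test through WT BM, where they are high, so their calls and the count of 5 are a description. Of these, Ighd2-4 +1822 had 55 WT BM and 6 untreated junctions, and Ighd2-5 +1490 had 13 and 0. Without WT BM 1, and without WT BM 4, 3 sites were called (18 and 19 of all 374). The direction of the calls depended on the library size: with the interval and the VH region 2 of 37 sites were higher and 0 lower, beside 14 of all 383 called, and with the full lists 15 of 35 were higher and 1 lower, beside 114 of all 374 called (5 and 1 of them with at least 10 junctions in both groups). With the interval as library size 4 sites were lower, 1 of them with at least 10 junctions in both groups, and 1 was higher (5.74% of all sites called): Ighd1-1 +3625, by 1.97 (SE 0.45, limma adjusted p 0.0131). Most full-list lines of WT BM 2 and 3 lay in the JH region, against 1.57% to 2.79% in untreated libraries. The part of this in the calls with full lists was not tested. Cell type, culture, RAG supply and sequencing run cannot be told apart here. The untreated libraries were on run 4 and the WT BM libraries on runs 3 and 6.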

How the data were processed

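Members, site lists and tests were chosen with earlier results of these data known. The authors' deposited lists hold 1 junction per line, with position, strand, bait end and read name and no normalization, per the file headers, so all counts were made here. Reads were aligned with Bowtie2 to mm9, per the submitters' processing notes; how off-target junctions were selected is not given in the sources used here. The libraries carry no molecular identifiers, so intervals and limits from counts cover counting error only.

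Segments came from the mm9 gene annotation, with 20 of 21 D segments named through RefSeq synonyms. Python 3.11.15 was used with pandas 2.3.3, scipy 1.17.1 and numpy 2.4.6. Mean shares of groups were set against each other by exact permutation over libraries, two-sided, and the 10 p-values were adjusted by Benjamini-Hochberg. A run is the instrument, run and flow cell part of the read names. Site counts, for sites of at least 10 junctions in the groups compared, genome-wide, went through voom, lmFit and eBayes of limma 3.58.1 in R 4.3.3, with adjusted p under 0.05 as the threshold. On simulated data the site test recovered 55.9% of 4-fold and 93.1% of 8-fold changes for INV BM against WT BM (234 sites), 67% and 84% for IAA/Dox against untreated (422 sites) and 64.6% and 89.5% for untreated against WT BM (383 sites). JH partners were assigned by the bait end. Sites named are the 10 with the highest mean use over the 4 groups and, per comparison and direction, up to 3 past the threshold with the largest change and no overlap between libraries; the test is given only for sites with at least 10 junctions in each group, a split added later; sites of other kinds (minus-strand sites, copies, Ighd4-1 +49) were chosen after their values were seen. Sequences were read from the mm9 genome. The alternatives were other ways of counting, denominators, library sizes, filters, left-out libraries, runs and replicate numbers as blocks. Plots used matplotlib 3.10.9.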

Additional observations from a re-analysis of the deposited data

Results flagged for a closer look

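In 4 of 30 groups of 4 libraries examined, 1 library stood apart from the rest by Dixon's criterion, which chance meets in about 1 in 20 groups. In WT BM the highest share at Ighd1-1 +1007 was 18.2%, in library 4, against 11.9% to 12.1% in the others; this library has no joint to Ighj1 or Ighj2. In INV BM the lowest share at Ighd6-1 +892 was 4.58% (library 1), against 5.49% to 5.58%. In INV BM the highest share at Ighd1-1 +1964 was 2.11% (library 2), against 1.39% to 1.5%. In INV BM the highest number of off-target lines per 100 lines of the interval was 1.89 (library 1, the only INV BM library of its run), against 1.17 to 1.27.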

How the results depend on the processing

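The share beyond Ighd1-1 kept its direction under every alternative run, for both comparisons, with leave-one-out ranges of -12.3 to -9.11 points (INV BM against WT BM) and -35.7 to -34.5 (IAA/Dox against untreated); counting each position once brought the first to -4.06. The weak INV BM differences in the D-interval share, the minus-strand share and the CAC share turned with the setting, as did the rate. The CAC share turned to -0.309 with every line, -0.384 with each position once, -2.04 with CAC within 5 bp and -0.341 with Ighj3 and Ighj4 only (added), and in IAA/Dox cells to 0.126 with the last. The minus-strand share for INV BM turned to 0.832 with each position once and 0.567 with Ighj3 and Ighj4 only. The D-interval share of the list turned to -4.66 against the interval and VH region and -5.55 against chromosome 12. The rate turned to -1.20 as lines per 100 D-interval lines (INV BM) and to 16.3 with each position once (IAA/Dox). The cause was not tested. The rate sets distinct junctions against lines of the full list, and most full-list lines of WT BM 2 and 3 lay in the JH region. Leaving out libraries, the D-interval share ranged from -3.66 (without WT BM 2) to 13.4 and from -16.4 to -5.81, the rate from 121 to 182 and from -107 to -55.3, the minus-strand share from -0.523 to 0.195 (without WT BM 2; 0.0364 without INV BM 1) and from 3.17 to 5.62, and the CAC share from 1.28 to 1.77 and from -3.30 to -0.969.

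Called sites of the interval for INV BM against WT BM numbered 9 of 213 with at least 1 junction (1 higher, 8 lower, beside 387 of all 2243). They numbered 3 with the interval as library size (1 higher, 2 lower, beside 26 of all 234) and 2 with interval and VH (1 each way, beside 25 of all 234). The full lists gave 1 (higher, beside 11 of all 222), and every line gave 6 of 112 (beside 48 of all 517). Run as a block gave 7 (all higher, beside 77 of all 234), so the direction differed between settings. For IAA/Dox the interval as library size gave 2 (higher, beside 6 of all 422). Interval and VH, and the full lists, gave 0 there (beside 2 of all 422 each). For untreated against WT BM 142 of 197 were called with at least 1 junction (1 higher, beside 1610 of all 2358). Interval and VH gave 2 (both higher, beside 14 of all 383) and the full lists 16 (15 higher, beside 114 of all 374). Leave-one-out ranges of the number called were 0 to 1, 4 to 14 and 3 to 7 in the 3 comparisons. Beside them, 17 to 28 of 171 to 225, 6 to 31 of 342 to 416 and 18 to 39 of 298 to 374 sites were called over all sites. For INV BM against WT BM, Ighd2-5 +332 ranged from 0.68 (without WT BM 2) to 1.75 with a library left out. In the same comparison Ighd1-1 +1007 turned from a value above 0 to -0.59, -0.57 and -0.20 with the interval, interval and VH, and every line, and ranged from -0.49 (without WT BM 2) to 0.89 with a library left out; Ighd1-1 +3141 turned to -0.45, -0.48 and -0.19, and ranged from -0.68 (without WT BM 2; -0.03 without INV BM 1) to 0.68.

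The replicate numbers do not pair the libraries: same-numbered libraries correlated at 0.10, -0.14, 0.17 and -0.28 (INV BM, WT BM) and -0.22, -0.19 and -0.32 (IAA/Dox, untreated). With the replicate number as a block, 1, 14 and 7 sites were called in the 3 comparisons (30 of all 234, 27 of all 422 and 26 of all 374), the rate difference was 162 for INV BM, and the other share differences did not change.

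Depth limits the IAA/Dox libraries most: 0 junctions at a site allow 1.67% to 2.97% of their junctions, against 0.221% to 0.542% in untreated libraries. Shares of WT BM libraries 2 and 3 and INV BM libraries 1 and 4 come from lists that keep part of their lines.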
